A study of Homo sapiens with 6 samples.

Results

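The cytosolic ribosomal protein genes were examined in maps of open chromatin from NCI-H1703 cells, a human line established from a squamous cell carcinoma of the lung. They were taken as the autosomal protein-coding genes whose symbols are RPL or RPS followed by a number, with at most 1 further letter A, L or X, together with RPLP0, RPLP1, RPLP2 and RPSA, leaving out the RPS6K kinases and pseudogenes. This gave 77 genes, 46 of the large and 31 of the small ribosomal subunit, of 19122 autosomal protein-coding genes. Another 4 genes with such symbols, RPS4X, RPL36A, RPL39 and RPL10, lie on chromosome X and were left out by the rule.

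ATAC-seq cuts open DNA with a transposase and maps where the cuts fall. Silencing of DLGAP1-AS2, a long non-coding RNA, marked the cells of 3 libraries, and control cells gave the other 3, each made from 10000 to 50000 cells. The library names carry the letters ASO for the silenced group, and the labels do not say what the control cells received. Open chromatin peaks do not measure RNA, so the silencing itself was not checked here.

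Cytosolic ribosomal proteins bind ribosomal RNA to form the small subunit, which decodes messenger RNA, and the large subunit, which joins amino acids. Their genes are transcribed at high rates in growing cells from single active copies scattered over the chromosomes, and their transcripts begin with a cytosine followed by a run of pyrimidines, the terminal oligopyrimidine (TOP) tract, through which the mTOR pathway controls translation. Many intronless pseudogene copies of these genes exist, and reads that match a gene and a copy equally may be assigned to either, so values for such stretches are uncertain.

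The start of the transcript is the feature that the windows of this gene family share, so stretches of 12 members are shown, each from 80 bases before to 20 bases after the annotated start, 5′ to 3′ on the gene's strand. The sequences and starts are from RefSeq on GRCh38.p14. Where several starts were listed for a gene, the one furthest 5′ was used here and in the window counts below. Base 81 of each is the first base of the transcript, and capitals mark the longest unbroken run of C and T that touches the 21 bases centred on it. The first 9 begin at a C inside such a run, and the last 3 do not.
RPL22: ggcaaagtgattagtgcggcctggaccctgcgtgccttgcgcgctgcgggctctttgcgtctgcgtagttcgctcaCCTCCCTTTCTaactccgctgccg
RPL34: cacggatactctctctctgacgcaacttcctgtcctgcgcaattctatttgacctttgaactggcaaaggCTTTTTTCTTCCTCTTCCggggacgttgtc
RPS24: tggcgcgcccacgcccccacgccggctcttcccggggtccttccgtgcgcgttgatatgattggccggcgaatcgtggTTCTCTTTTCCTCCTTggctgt
RPL41: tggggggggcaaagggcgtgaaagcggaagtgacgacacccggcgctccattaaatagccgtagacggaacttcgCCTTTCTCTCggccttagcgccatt
RPL13A: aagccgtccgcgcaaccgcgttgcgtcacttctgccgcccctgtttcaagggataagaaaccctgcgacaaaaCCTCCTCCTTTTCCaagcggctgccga
RPLP0: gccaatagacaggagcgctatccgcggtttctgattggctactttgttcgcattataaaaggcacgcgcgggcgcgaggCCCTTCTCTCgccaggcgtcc
RPS6: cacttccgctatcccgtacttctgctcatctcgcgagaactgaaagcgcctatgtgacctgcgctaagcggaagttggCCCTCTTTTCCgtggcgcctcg
RPS16: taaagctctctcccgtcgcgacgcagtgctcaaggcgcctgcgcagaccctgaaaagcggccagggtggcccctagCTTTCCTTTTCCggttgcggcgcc
RPS21: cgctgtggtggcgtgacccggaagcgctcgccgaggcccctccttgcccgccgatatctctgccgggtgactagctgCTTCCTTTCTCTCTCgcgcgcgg
RPL15: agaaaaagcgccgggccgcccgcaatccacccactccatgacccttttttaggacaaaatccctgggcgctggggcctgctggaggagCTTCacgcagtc
RPS27L: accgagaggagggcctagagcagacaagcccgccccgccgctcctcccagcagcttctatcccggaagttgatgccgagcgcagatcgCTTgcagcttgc
RPL10L: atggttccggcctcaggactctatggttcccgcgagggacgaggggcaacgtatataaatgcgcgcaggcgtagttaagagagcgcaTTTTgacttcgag

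On the plus strand these stretches are chr4:108620496-108620595 (RPL34), chr10:78033783-78033882 (RPS24), chr12:56116553-56116652 (RPL41), chr19:49487528-49487627 (RPL13A), chr20:62387023-62387122 (RPS21) and chr3:23916465-23916564 (RPL15). On the minus strand they are chr1:6199576-6199675 (RPL22), chr12:120201092-120201191 (RPLP0), chr9:19380217-19380316 (RPS6), chr19:39435930-39436029 (RPS16), chr15:63157458-63157557 (RPS27L) and chr14:46651762-46651861 (RPL10L). The stretches were picked to show members with high and with low peaks, and 2 paralogs of restricted use, after their values were known.

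A window of 250 bases before to 50 bases after the start was listed for 60 of the 77 members and for 15040 other autosomal protein-coding genes. The annotated transcript began at C in 44 of the 60 members (73.3%) and in 11% of the other genes. A C followed without a break by at least 5 pyrimidines in all, the first C included, opened 40 members' transcripts (66.7%), against 4.33% of the others. The minimum of 5 was chosen with the sequences in view. The longest pyrimidine run touching the 21 bases around the start had a median length of 11 bases in the members and 4 in the other genes, and the longest among the members, 25 bases, was at RPL7A. Mitochondrial ribosomal protein genes, whose products make up the separate ribosome of mitochondria, began at C in 13.0% of 69 windows and with C and such a run in 8.70%. The cytosolic genes thus differed from both by the letters at the start. These shares describe the reference sequence, are independent of the libraries and carry no test.

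Other promoter motifs were searched on both strands of the same windows, and a match is only a match of letters. The ETS core CCGGAAG, bound by factors such as GABP, was found in 35.0% of the members, 42.0% of the mitochondrial set and 14.3% of all 15100 windows. The YY1 core ATGGCGG was found in 18.3%, 34.8% and 7.57%. The TATA box TATAAA was found in 10.0%, 2.90% and 9.83%. The other motifs were about as common in the members as in all windows or rarer: the GC box GGGCGG in 55.0% against 58.7%, the NF-Y box CCAAT in 36.7% against 36.0%, and the E-box CACGTG in 5.00% against 8.71%. GGGCGG and ATGGCGG end in the same letters, each motif was counted on its own, and matches may overlap.

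**Figure D1:**
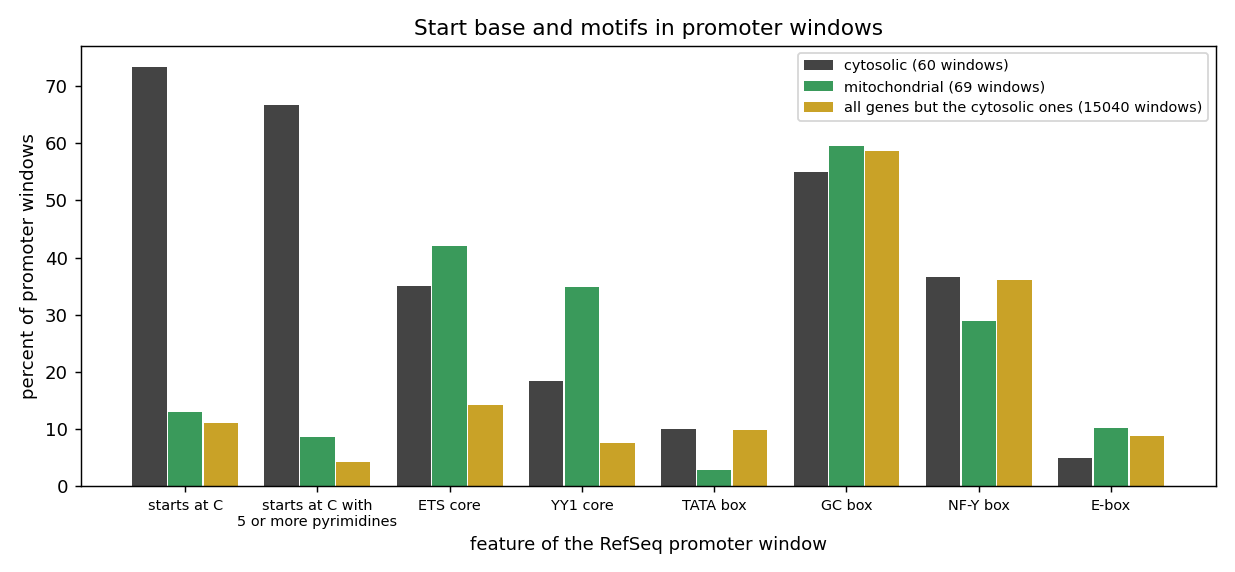
Percent of RefSeq promoter windows (vertical axis) that hold each feature (horizontal axis), for 60 cytosolic and 69 mitochondrial ribosomal protein genes and 15040 other autosomal protein-coding genes; bars start at 0. The bars for a start at C, 73.3% in the cytosolic set, stand far above those of both other sets, while the ETS and YY1 bars are highest in the mitochondrial set.

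For the libraries, each gene was given the tallest peak whose midpoint lay within 1 kb of either end of the gene's span. The deposited pileup at the peak is called its height here, and the fold enrichment is the authors' ratio of pileup to local background. Both depend on sequencing depth, so levels were compared between libraries as percentiles. These rank the fold enrichment of a gene's peak among the 11219 autosomal protein-coding genes with a peak in all 6 libraries, and 100 is the highest. Values per library are given in the order silenced replicates 1, 2 and 3, then control replicates 1, 2 and 3.

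The lists differed in size. Control replicate 2 had the shortest, with 91346 peaks, then silenced replicate 3 with 121406, and the others held 162115 to 170882. By background and correlation, silenced replicate 3 stood apart from the rest. The lowest local background implied by a list, a stand-in for the unknown read depth, was 0.237 in silenced replicate 3 and 0.369 to 0.464 in the others. Across genes, the normal scores of silenced replicate 3 correlated with those of the other libraries at r = 0.819 to 0.837, and the other libraries among themselves at r = 0.902 to 0.911; the points are genes of shared lists and are not replicates. Of the squamous markers, SOX2 had a peak in 6 of 6 libraries (heights 22, 18, 10, 20, 20 and 20), TP63 had a peak no higher than 5 in 4 libraries, and KRT5, KRT14, DSG3 and PKP1 had one no higher than 5 in 1 or 2. KRT6A had none. The mesenchymal markers VIM, CDH2 and FN1 had peaks in all 6, as did the alveolar gene NKX2-1 and the leukocyte gene SPI1.

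Nearly all of these genes had an open end in every library. A peak was present at 76, 76 and 76 members in the silenced libraries and at 75, 76 and 75 in the control libraries. In all 6 libraries a peak was present at 75 of 77 members (97.4%), which is 44 of 46 large and 31 of 31 small subunit genes. The same held for 11219 of 19122 autosomal protein-coding genes (58.7%). It also held for 72 of 77 mitochondrial ribosomal protein genes (93.5%), 28 of 30 genes of ribosome assembly and ribosomal RNA synthesis (93.3%) and 17 of 18 other translation genes with TOP transcripts (94.4%).

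The 2 exceptions were both large subunit genes. RPL10L, an intronless paralog of RPL10 used mainly in the testis, had a single peak of height 6, in silenced replicate 3, and its start, shown above, lacks a TOP-like run. RPL19, a core protein of the large subunit, had a height of 20 in silenced replicate 1, 17 in silenced replicate 2 and 22 in control replicate 2, and no listed peak in silenced replicate 3 or control replicates 1 and 3. The libraries with a RPL19 peak thus came from both groups.

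The genes lacking a peak in the related sets were few. Among mitochondrial ribosomal protein genes, MRPL24, MRPL44 and MRPL23 had none in any library, MRPL35 had one in control replicates 1 and 3 only (heights 22 and 16), and MRPS34 lacked one in silenced replicate 3 only. PES1, a nucleolar factor in large subunit assembly, had one only in control replicate 2 (height 10), and BYSL, a factor in small subunit assembly, only in silenced replicate 3 (height 2).

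Where a start was listed, the peaks lay on it. All listed starts of a gene were used here. Of the 60 members with a listed start, 58 or 59 had a peak within 1 kb of one in each library. The tallest such peak covered a listed start base in 91.5% to 100% of members against 75.1% to 84.7% of other genes. Its midpoint lay a median of 70.5 to 97.0 bases from the nearest listed start, against 126.5 to 132.5 bases in other genes. The median signed distance was upstream in every library, -95.0 to -68.0 bases in members and -87.5 to -55.5 in other genes. The 17 members without a listed start, among them RPL5 and RPL37, could be placed only against the ends of their spans.

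**Figure D2:**
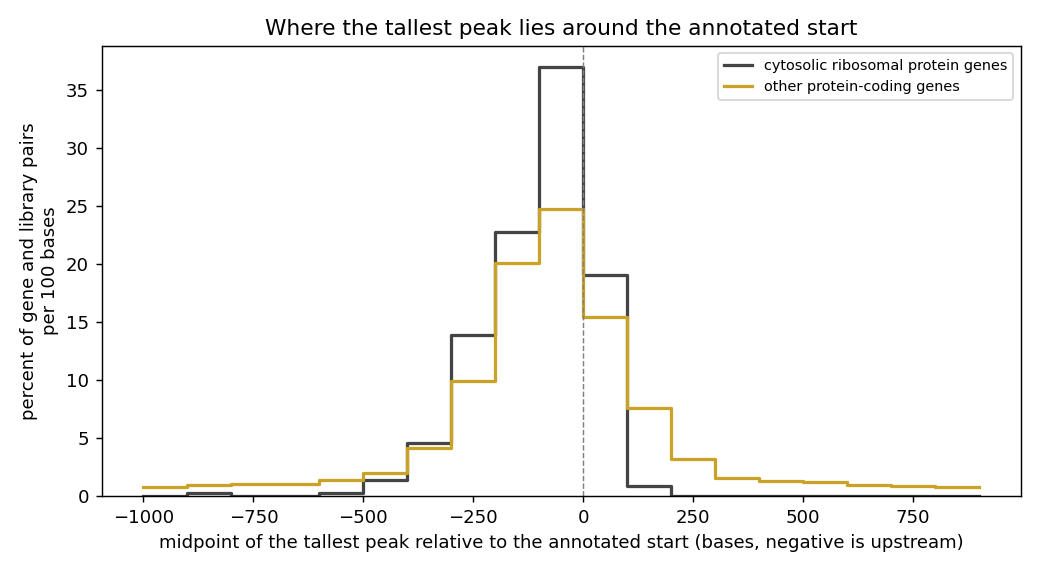
Midpoint of the tallest peak within 1 kb of an annotated start (horizontal axis, bases, negative is upstream) as a percent of gene and library pairs in each 100 bases (vertical axis), with the 6 libraries pooled. The curve of the cytosolic ribosomal protein genes is narrower than that of other protein-coding genes, and both are highest just upstream of the start.

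Neighbouring genes share some of these peaks. At 31 of 77 members the tallest peak had an end of another protein-coding or lncRNA gene within 1 kb, and such a peak cannot be assigned to either gene. At 6 of the 60 members with a listed start the tallest peak, by its median midpoint over libraries, was nearer the other end of the gene. These were RPL41, RPL26, RPL4, RPL7A, RPL27A and RPL38. This did not hold in every library. The exceptions included RPL26 in silenced replicate 3 (27 at the start against 26) and RPL38 in silenced replicate 1 (43 at the start against 38). RPL41, which encodes the smallest ribosomal protein, had heights of 105, 103, 48, 98, 113 and 90 at a peak 28 bases from an end of ZC3H10, and 21, 32, 14, 25, 29 and 25 at its own start. RPL4, which lines the exit tunnel of the ribosome, had 30, 63, 19, 45, 41 and 45 beside SNAPC5 and 17, 24, 16, 25, 26 and 22 at its own start. At both genes the neighbour's side was the taller in every library.

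The tallest peaks of all libraries shared bases at 72 of 77 members, the others being RPL27A, RPL26, RPL35A, RPL38 and RPL12. Close to the distance limit, 59 peaks at 19 members had midpoints 800 to 1000 bases from an end, with a median height of 16. Another 33 peaks at 13 members lay 1000 to 1200 bases away, with a median height of 18. The tallest of the latter were at RPL17, with 106, 53, 90, 97 and 103 in silenced replicates 2 and 3 and control replicates 1, 2 and 3. Within 1 kb, RPL17 had 39, 23, 33, 38 and 35 in these libraries.

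The level of the peaks was ordinary for genes with an open end. The median height over the members was 43, 47 and 23 in the silenced and 41, 50 and 43 in the control libraries, against 36, 43, 19, 38, 43 and 39 over all 11219 genes. By fold enrichment the median percentile of the members was 53.2, 48.2, 59.6, 51.0, 52.9 and 47.0, where 50 is the middle of all genes. The members thus lay around the middle in each library. By height the median percentile was 54.2 to 59.8. Over libraries, 42 of 75 members had a median percentile above 50, 15 above 75 and 12 below 25.

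The local background under the members' peaks was higher than under those of other genes in 6 of 6 libraries. This background, (height + 1) / fold enrichment - 1, had medians of 2.62, 3.02, 1.40, 2.54, 3.18 and 2.68 in members and 2.16, 2.50, 1.10, 2.26, 2.66 and 2.28 over all genes. RPL37 had the highest median, 7.19, which was 19.0 times the lowest of its lists, followed by RPL23A, RPL14, RPL41 and RPL38. A high background lowers the fold enrichment by construction. RPL23A ranked at the median percentile 86.0 by height and 38.9 by fold enrichment, and RPL14 at 69.6 and 21.6. RPS6 had the lowest median background of the 75 members with a peak in all 6 libraries, 1.05, and ranked at 30.2 by height and 55.9 by fold enrichment.

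Mitochondrial ribosomal protein genes ranked higher than the cytosolic ones in 6 of 6 libraries, with median percentiles of 64.3, 63.5, 65.0, 64.9, 59.0 and 60.1. Assembly genes had medians of 56.4 to 63.9 and the other TOP genes of 48.0 to 64.8. Within the cytosolic set, large and small subunit genes spanned similar ranges, 44.5 to 54.5 and 47.2 to 60.6. Members whose transcript opens with C and a run had a median percentile of 52.5 (40 genes), against 43.2 for the other 20 windows, a median over 18 genes since RPL10L and RPL19 have no percentile. Peak widths also lay close to those of all genes, with member medians of 648, 653, 531, 660, 695 and 700 bases against 621, 683, 457, 683, 658 and 671.

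**Figure D3:**
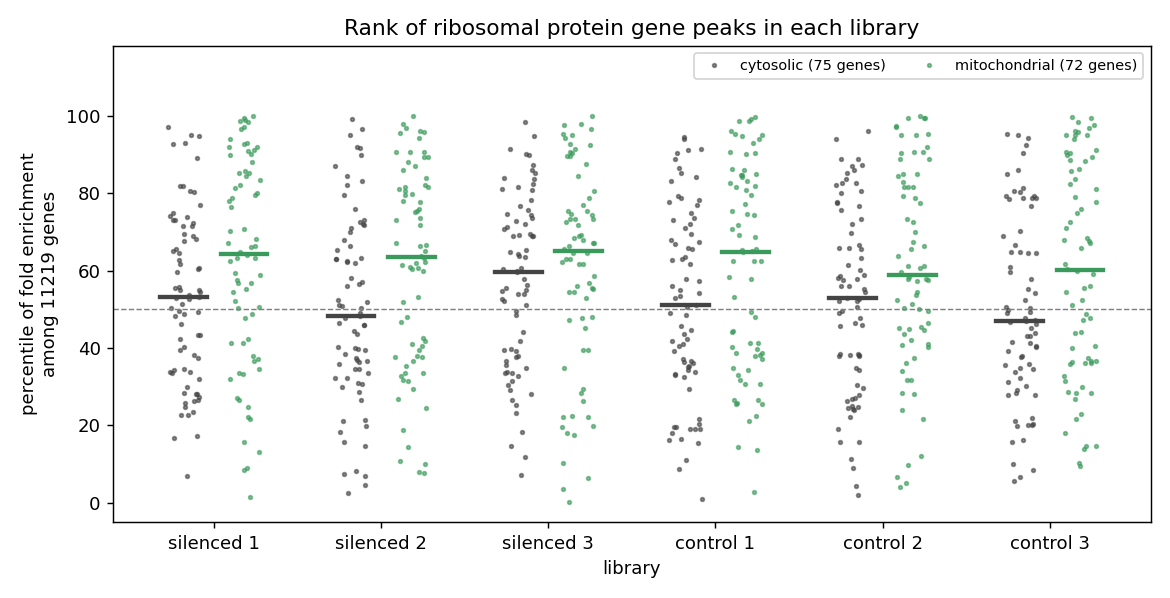
Percentile of fold enrichment among 11219 genes (vertical axis) in each library (horizontal axis) for 75 cytosolic and 72 mitochondrial ribosomal protein genes; points are genes, thick lines medians, and the dashed line marks 50. The cytosolic medians lie between 47.0 and 59.6 and the mitochondrial medians above them in every library.

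The tallest peaks belonged to RPL37, RPL41, RPL15, RPS15A and RPL18. RPL37, a zinc-binding protein of the large subunit, had heights of 166, 172, 123, 164, 170 and 161 at a peak on chromosome 5 whose start and end had medians of 40834891 and 40835815 (GRCh38) over the libraries, with its midpoint 129 bases from an end of its span. Even in silenced replicate 3 it exceeded every other member's height in any library. RPL15, which interacts with ribosomal RNA of the large subunit, had heights of 74, 89, 52, 83, 99 and 92. RPS15A, of the small subunit, had 79, 84, 52, 80, 85 and 80. RPL18 had 78, 71, 50, 91, 81 and 91 at a peak shared with an end of SPHK2. In each of these genes silenced replicate 3 was the lowest library. The RPL15 transcript from the listed start furthest 5′ begins at T and lacks a TOP-like run. The midpoint of the RPL15 peak lay 460.5 bases from that start and 92.5 bases from another listed start. The sequence at the nearer start was not analysed here. By percentile RPL22, RPL37 and RPL3L led, with medians of 94.9, 94.7 and 93.4.

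The lowest peaks after RPL10L were those of RPL6, RPL32, RPL19 and RPS29. RPL32, of the large subunit, had heights of 21, 18, 12, 16, 23 and 22 at its own start, with a median percentile of 25.4. RPL6 had 25, 21, 7, 19, 17 and 15 at a peak 71 bases from an end of PTPN11. Around a listed RPL6 start, inside the span, the peak had 25, 22, 18, 27, 30 and 35. RPS29 had 17, 21, 10, 19, 24 and 21 beside LRR1, and a peak inside its span had 57, 49, 32, 43, 48 and 50. For RPL6 in 5 libraries and for RPS29 in all 6, the peak within the span was the taller. By percentile RPL12, of the ribosomal stalk base, was the lowest member, with a median of 5.65 and heights of 23, 21, 16, 17, 23 and 23.

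**Figure D4:**
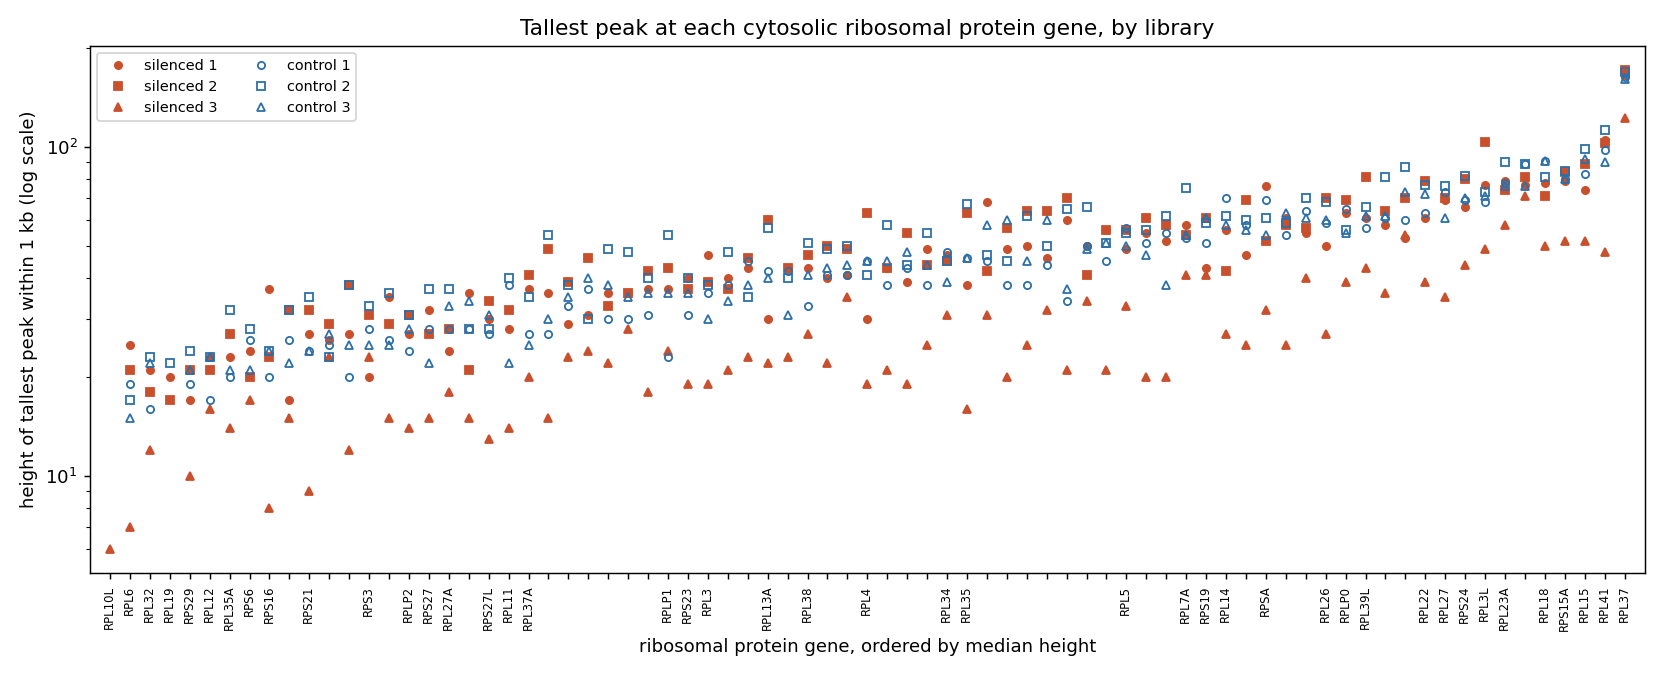
Height of the tallest peak within 1 kb of a gene end (vertical axis, log scale, deposited pileup) for the members in order of median height (horizontal axis, with names for the genes in the text); each symbol is a library. Heights run from 6 at RPL10L to 172 at RPL37, and the triangles of silenced replicate 3 lie below the other libraries at most genes.

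The stalk proteins RPLP0, RPLP1 and RPLP2, which recruit the elongation factors, differed among themselves. RPLP0 had heights of 63, 69, 39, 65, 56 and 55, and RPLP1 had 37, 43, 24, 23, 54 and 36. RPLP2 had 27, 31, 14, 24, 31 and 28. RPLP0 was the tallest of the 3 in every library, with a median percentile of 53.7 against 43.4 for RPLP1 and 21.9 for RPLP2, and the groups overlapped in height for each.

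Some well-known members were named for roles beyond the ribosome or for disease: RPL5, RPL11, RPS19, RPS6, RPS3, RPSA and RPL13A. Their median percentiles ran from 50.6 at RPS3 to 82.5 at RPL5. Other members with such roles were not gathered, so the range covers only the genes named. RPL5 and RPL11 bind MDM2 with the 5S ribosomal RNA and thereby stabilise p53. RPL5 had heights of 49, 56, 33, 57, 55 and 50, and RPL11 had 28, 32, 14, 38, 40 and 22. RPS19, the gene most often mutated in Diamond-Blackfan anaemia, had 43, 61, 41, 51, 59 and 61. RPS6, the small subunit protein phosphorylated by S6 kinases, had 24, 20, 17, 26, 28 and 21. The ranges of both groups overlapped at each of these genes. RPS3, which also acts in DNA repair, had 20, 31, 23, 28, 33 and 25. RPSA, also known as a laminin receptor, had 76, 52, 32, 69, 61 and 54. RPL13A, part of a complex that silences translation of inflammatory transcripts, had 30, 60, 22, 42, 57 and 40. Here too the groups overlapped.

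The paralogs of restricted use did not share a level. RPL3L, which replaces RPL3 in striated muscle, had heights of 77, 104, 49, 68, 73 and 71 at a peak 172 bases from an end of MSRB1 and 603 bases from its own. RPL3 itself had 47, 39, 19, 36, 38 and 30. RPL3L was the taller of the pair in every library. RPL39L, used in the testis, had 61, 81, 43, 57, 66 and 62 at its own span end. RPS27L, induced by p53, had 30, 34, 13, 27, 28 and 31, and its paralog RPS27 had 32, 27, 15, 28, 37 and 22. RPL10L alone among these 4 paralogs lacked a peak in most libraries, while RPS27L and RPS27 overlapped in height.

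No member passed the test between silenced and control libraries. The normal scores of the percentiles were compared with limma over all 11219 genes with Benjamini-Hochberg adjustment. Of 75 members 0 had an adjusted p under 0.05, and the lowest adjusted p was 0.938. Over all genes 0.00891% were called, which is 1 gene. At an unadjusted p under 0.05 there were 2 members (2.67%), RPL27A among them, against 5.06% of all genes, so the members' share was below that of all genes. On simulated data of this design limma recovered 90.5% of 200 genes whose scores were moved by 2 units, and 0% when the move was 1 unit. Shifts of the size seen in the members, at most 0.69 units, were therefore not detectable at this number of libraries.

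The large shifts towards the silenced libraries included RPL12 (0.69 score units, SE 0.36), RPL3L (0.58, SE 0.28) and RPLP1 (0.50, SE 0.26), each with an adjusted p of 0.938 by limma. RPLP1 had percentiles of 42.4, 44.5, 69.1, 19.5, 49.2 and 32.4, and the silenced and control libraries overlapped. RPL12 had 6.83, 4.57, 26.6, 0.967, 2.10 and 6.73, and its tallest peaks did not all share bases. Without silenced replicate 3 the shift of RPL12 was 0.35 (SE 0.34, limma adjusted p 0.930).

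The 4 largest shifts towards the control libraries were at RPL27A (-0.53, SE 0.24, adjusted p 0.938), RPL35 (-0.34, SE 0.23), RPL27 (-0.28, SE 0.21) and RPL13A (-0.26, SE 0.26), the last 3 with adjusted p of 0.952 by limma. RPL27A had percentiles of 33.9, 30.8, 54.0, 73.6, 56.0 and 49.4, but its tallest peak was not the same one in every library, and the sign of its shift changed under 2 of 16 other settings. RPL35, near the exit of the peptide tunnel, had 37.4, 58.0, 35.6, 56.0, 65.5 and 49.7, with overlapping groups. RPL13A had 28.2, 70.0, 52.8, 66.9, 60.1 and 54.2, also overlapping.

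The groups did not overlap at 5 members. All 3 silenced percentiles lay above all 3 control percentiles at 4 members, among them RPL37, RPL37A and RPS23, which is 5.33% of members against 5.45% of all genes. They lay below at RPL27 only, 1.33% against 5.07%. RPL37A, a zinc-binding protein of the large subunit, had 68.1, 63.0, 63.9, 48.4, 57.9 and 41.4. RPL27 had 76.9, 71.0, 72.8, 84.2, 82.5 and 79.2. The share above was close to that of all genes, and limma called none of the 5.

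The members' shifts were small and mostly of one sign. In 49 of 75 members the mean score was higher in the silenced libraries (65.3%, against 51.8% of all genes), and the median shift was 0.07 score units against 0.01 over all genes. Without silenced replicate 3 the share fell to 54.7%. The median percentile was 53.7 on average in the silenced and 50.3 in the control libraries, a difference of 3.37 points, which became 0.404 without silenced replicate 3. Heights were lower on average in the silenced group at 67 of 75 members (89.3%) and at 90.2% of all 11219 genes, so the members' share was close to that of all genes. Without silenced replicate 3, heights were lower in the silenced group at 32 of 75 members (42.7%) and at 51.0% of all 11219 genes. Silenced replicate 3 also had the lowest library background, 0.237, and the narrowest peaks, and the part of this in the values was not tested.

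**Figure D5:**
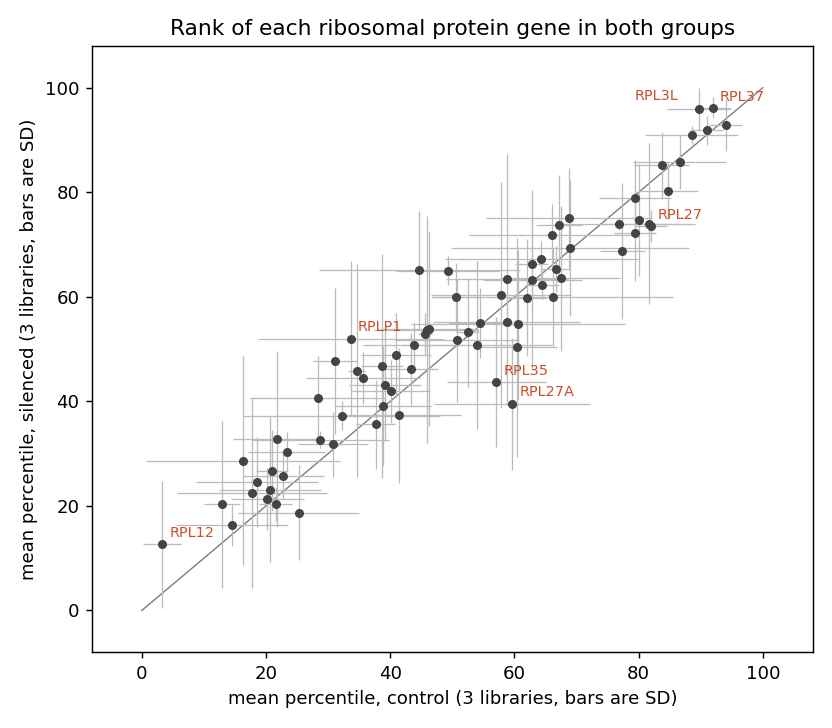
Mean percentile of fold enrichment in 3 silenced libraries (vertical axis) against 3 control libraries (horizontal axis) for 75 members; bars are SD over 3 libraries and the line marks equality. The points follow the line, and RPL27A lies well below it, with mean percentiles of 39.6 in silenced and 59.6 in control libraries.

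The related sets gave the same count. In limma 0 of 72 mitochondrial ribosomal protein genes, 0 of 28 assembly genes and 0 of 17 other TOP genes had an adjusted p under 0.05, with a lowest adjusted p of 0.938 in each set. Their median shifts were 0.05, 0.03 and 0.07 score units. The 1 gene called over the whole table was MTMR4, a lipid phosphatase gene that is no member and was singled out after its values were seen. Its shift was 2.62 score units (SE 0.24, limma adjusted p 5.28e-05). A tall peak near MTMR4 had its midpoint 938.5 to 986.5 bases from the gene's end in the silenced libraries and 1001 to 1043.5 bases in the control libraries, on the other side of the 1 kb limit, with heights of 197, 200, 126, 188, 226 and 205. Limits of 500 bp and 2 kb gave no call for MTMR4.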

How the data were processed

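ATAC-seq peak lists of 3 silenced and 3 control libraries were analysed. Per the submitters' processing notes, Trimmomatic 0.36, Bowtie2 2.2.6, Picard 2.8.2, MACS2 2.1.1, bedtools 2.25.0 and the GRCh38 build were used; their roles, settings and any shift of read ends are not given in the sources used here. Per the file headers, the authors deposited for each peak a fold enrichment (a ratio), a p-value with an FDR, and a pileup signal, in one list per library. No counts or read totals were used, so depth is unknown.

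Peaks were joined to RefSeq gene spans (GRCh38.p14) by peak midpoint. The tallest peak within 1 kb of a gene end stood for the gene. Fold enrichment was ranked within each library over 11219 genes, turned into normal scores and fitted with limma 3.58.1 (lmFit and eBayes with trend, R 4.3.3), with Benjamini-Hochberg adjustment over all genes and a threshold of 0.05. The procedure was tested on simulated data. Nothing in the labels says that the libraries came from separate cultures, so p-values measure only the spread between these libraries. Tables were made with pandas 2.3.3 and numpy 2.4.6.

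The members and lists were chosen with earlier results of these data known. Named were the members lacking a peak in a library, the 5 highest and 5 lowest by median height, the 4 largest shifts each way, 10 fixed well-known members, the restricted paralogs RPL3L, RPL10L, RPL39L and RPS27L beside RPL3 and RPS27, and genes of the related lists lacking a peak; others named were chosen after their values were seen, and some genes that the rule names are not reported here. Replicate numbers were not taken as pairs, since the labels tie no equal numbers together. The alternatives were other distances (500 bp, 2 kb), an FDR of at most 1e-05, equal list sizes, annotated starts only, ranks by height or p-value, genes called in at least 5 libraries, wider member symbols, a replicate block, and leaving out each library. Stretches of sequence for the 17 members without a listed start were not analysed here.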

Additional observations from a re-analysis of the deposited data

How the results depend on the processing

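In all 16 other settings limma called 0 members, with a lowest adjusted p of 0.646, and 24 of 75 members kept the sign of their shift in every setting that tested them. No sign could change with the wider member symbols or the replicate block, since both leave each gene's shift as it was. The difference in members with a peak, silenced minus control, was 0.667 genes and turned to -0.333 with a distance limit of 500 bp and to -0.333 with an FDR of at most 1e-05; the cause was not tested. The count over all protein-coding genes was 1 and became 0 at 500 bp, at 2 kb and with annotated starts only, and 2 with genes called in at least 5 libraries; leaving out 1 library gave 1 to 3. The difference in median percentile, 3.37 points, ranged from 0.404 without silenced replicate 3 to 6.07, and that in median width, -74.3 bases, from -95.5 to -34.5. With a replicate block limma called 0 members and 1 gene, and the difference in median percentile, 3.37, cannot change under a block in this balanced design. Same-numbered libraries correlated at -0.00296, 0.00602 and 0.00261 in their deviations, so the numbers gave no pairing. Peak lists alone give no read depth, and 3 libraries a group limit the test to large shifts.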

Other observations

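The ribosomal protein genes that the naming rule left out had open ends as well. On chromosome X, RPS4X, a small subunit gene with a copy on the Y chromosome, had heights of 34, 33, 18, 28, 39 and 32 in the silenced and then the control libraries. RPL36A, RPL39 and RPL10 had median heights of 71.5, 47.5 and 58.0. On the autosomes, the paralogs RPL22L1, RPL7L1 and RPL36AL had peaks in all 6 libraries, with median heights of 51.5, 71.5 and 64.0. RPL26L1, a close paralog of RPL26, had no peak within 1 kb of a span end in any library.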
